A study of Mus musculus with 2 samples.

Results

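The 10 genes described here encode the chains of fibrinogen and the clotting and anticlotting proteins that the liver makes with it, and they were taken by symbol from the 32285 genes listed for each section. They are Fga, Fgb and Fgg for fibrinogen, F2 for prothrombin, F7, F9 and F10 for the vitamin K dependent factors, Serpinc1 for antithrombin, Plg for plasminogen and Proc for protein C. All 10 were present in both tables and all had at least 1000 UMIs in each section. The data are spatial transcriptomics (ST) counts from 10x Visium, in which a tissue section lies on a slide of barcoded spots and each captured RNA molecule is counted once by its unique molecular identifier (UMI). The groups were NCD, 1 male C57BL/6J mouse on a normal chow diet, and HFD, 1 male C57BL/6J mouse given a diet with 60% fat for 14 weeks before the last 8. Mice were 5 weeks old at purchase with 1 week of acclimation, both were given distilled water by mouth over those last 8 weeks, and the livers were perfused before sections of 10 µm were cut. With 1 section of 1 mouse per diet, diet, animal, section and slide cannot be told apart, no test between groups is possible, and every interval below is an exact 95% interval that covers counting error only.

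Clotting factors are secreted by hepatocytes, and their genes are among the defining products of that cell. Fibrinogen is assembled from pairs of the Aα, Bβ and γ chains, thrombin cuts it to fibrin, and fibrin forms the mesh of a clot. Thrombin itself is released from prothrombin by activated factor X, which is switched on by factor VII with tissue factor or by factor IX with its cofactor. Antithrombin and protein C slow this cascade, and plasminogen yields the protease that dissolves fibrin. The fibrinogen chains are also acute phase genes, raised in hepatocytes by interleukin-6, whereas the other members are not classed among the major acute phase proteins.

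The 3 fibrinogen genes lie in 1 cluster on chromosome 3 of the GRCm38 build, where Fgg spans chr3:83007724-83015049 and Fga spans chr3:83026076-83033627 on the plus strand, and Fgb spans chr3:83040141-83049863 on the minus strand. F7 (chr8:13026034-13035809) and F10 (chr8:13037308-13056676) are direct neighbours on the plus strand of chromosome 8. The other members are single loci, with F2 on chromosome 2, F9 on the X chromosome, Serpinc1 on chromosome 1 and Plg on chromosome 17. Promoters are shown for the fibrinogen chains because their levels climbed toward the portal side in both sections. They are RefSeq bases of GRCm38.p6 just before the gene start, read 5′ to 3′ on the strand of the gene, at chr3:83025903-83026075 for Fga, chr3:83049864-83050113 for Fgb and chr3:83007474-83007723 for Fgg. Capitals mark each CTGGGA, the core of the interleukin-6 response element.
Fga promoter: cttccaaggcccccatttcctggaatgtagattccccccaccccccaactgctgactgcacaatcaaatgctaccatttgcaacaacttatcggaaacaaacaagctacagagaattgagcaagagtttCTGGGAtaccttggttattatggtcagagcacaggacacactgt
Fgb promoter: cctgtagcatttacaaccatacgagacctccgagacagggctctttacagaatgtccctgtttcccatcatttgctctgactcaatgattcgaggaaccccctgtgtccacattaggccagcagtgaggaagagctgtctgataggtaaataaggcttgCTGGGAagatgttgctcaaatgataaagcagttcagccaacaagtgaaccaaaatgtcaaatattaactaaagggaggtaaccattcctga
Fgg promoter: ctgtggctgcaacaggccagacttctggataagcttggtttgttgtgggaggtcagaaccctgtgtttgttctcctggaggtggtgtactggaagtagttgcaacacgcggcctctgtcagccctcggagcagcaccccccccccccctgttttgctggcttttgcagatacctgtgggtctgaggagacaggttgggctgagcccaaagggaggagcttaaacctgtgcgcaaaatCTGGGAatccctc
RefSeq promoters were on hand for 8 of the 10 members. In the 250 bases before the RefSeq start, CTGGGA on either strand was found in 5 of these 8 (Fga, Fgb, Fgg, F9 and F10) and in 27.0% of 32851 promoters of the same length. The letters began 121 bases before the RefSeq start of Fga, 91 before that of Fgb and 13 before that of Fgg. TTGCNNAA, a site of the C/EBP factors, was found on either strand in 3 of the 8, Fga, Fgb and F9, and in 9.56% of all promoters. Matches of CTGGGA and TTGCNNAA did not overlap in these members. A match describes letters in this window and not a bound site.

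Spots over tissue numbered 3692 in NCD, holding 29037988 UMIs, and 3594 in HFD, holding 72118803. Median UMIs per spot were 4187.5 and 18549. The NCD slide stood apart in its spots off tissue, which held 19.1% of its UMIs at a median of 3383 per spot, against 2.93% at a median of 1175.5 on the HFD slide. The sections shared 3173 barcodes, which are places on the printed grid and not cells. The labels name the samples as hematopoietic stem cells and immune cells, but both sections were hepatocyte tissue by their markers. Albumin (Alb) stood at 56011 CPM (counts per 1000000 UMIs) in NCD and 57872 in HFD, whereas each of 7 leukocyte markers was at or under 10.7 CPM, with Ptprc at 6.61 and 10.7 CPM. The stem cell marker Kit was at 3.06 CPM in NCD and 3.02 in HFD. Platelet markers were as scarce, with Pf4 at 3.41 and 8.62 CPM and Gp1bb at 0.10 and 0. A spot covers several cells, and fewer cells of a type and less RNA per cell cannot be told apart.

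The 10 members made up 1.20% of all UMIs in the NCD section (12044 CPM, 12004 to 12084) and 0.946% in the HFD section (9457 CPM, 9435 to 9480). Fibrinogen accounted for most of this, with a sum of the 3 chains of 6550 CPM (6521 to 6580) in NCD and 5061 CPM (5044 to 5077) in HFD. UMIs were counted as molecules without a scale for gene length, so levels of different genes are set side by side only as shares of the captured RNA. By that measure the order in HFD was Fgb, Fgg, Fga, Serpinc1, F2, Plg, Proc, F10, F9 and F7 from high to low, with no overlap between the intervals of neighbours. The order in NCD was the same, but there the intervals of Fga and Serpinc1 overlapped, and so did those of Proc and F10.

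**Figure D1:**
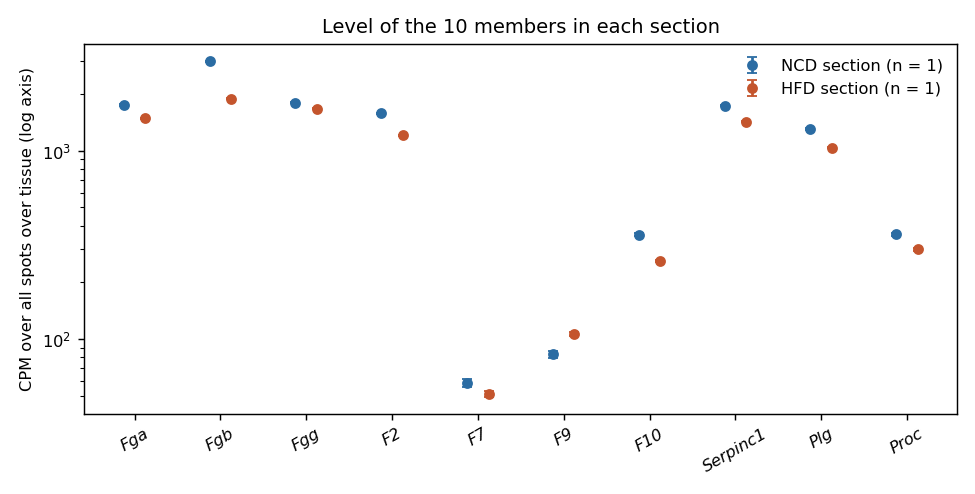
Level of each of the 10 members as CPM on a log axis, over all spots over tissue of the NCD section (blue) and the HFD section (orange), 1 section each, with bars for the exact 95% Poisson interval. Without subtraction of spots off tissue, every member but F9 sits lower in the HFD section, and the widest gap is that of Fgb, from 2994 to 1893 CPM.

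All 3 fibrinogen chains were lower in HFD than in NCD, and unequally so. Fgb, the Bβ chain, stood at 2994 CPM (2974 to 3014) in NCD and 1893 CPM (1883 to 1903) in HFD, for a log2 ratio of -0.66 (-0.67 to -0.65). Fga, the Aα chain, stood at 1753 CPM (1738 to 1769) and 1492 CPM (1484 to 1501), for a log2 ratio of -0.23 (-0.25 to -0.22). Fgg, the γ chain, was nearly level, at 1802 CPM (1787 to 1818) and 1675 CPM (1665 to 1684), for a log2 ratio of -0.11 (-0.12 to -0.09). The intervals of the sections did not overlap for any chain, and the sum of the chains had a log2 ratio of -0.37 (-0.38 to -0.36). In single spots with at least 1000 UMIs, the quartiles of Fgb were 2492, 2972 and 3529 CPM in NCD and 1555, 1861 and 2222 in HFD, so the upper quartile of HFD lay under the lower quartile of NCD. For Fgg the spots overlapped widely, with quartiles of 1361, 1749 and 2179 CPM in NCD and 1329, 1617 and 1932 in HFD.

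The clotting proteases split by gene. Prothrombin (F2) stood at 1585 CPM (1571 to 1600) in NCD and 1210 CPM (1202 to 1219) in HFD, for a log2 ratio of -0.39 (-0.41 to -0.37). F10, whose active form cuts prothrombin, stood at 359 CPM (352 to 366) and 260 CPM (256 to 263), for a log2 ratio of -0.47 (-0.50 to -0.43). Without subtraction of spots off tissue, this was the second lowest ratio after Fgb. F7, the partner of tissue factor, was sparse at 58.2 CPM (55.5 to 61.1) and 50.9 CPM (49.3 to 52.6), for a log2 ratio of -0.19 (-0.28 to -0.11). Again without that subtraction, F9, the factor missing in hemophilia B, was the single member that was higher in the HFD section. Its level was 82.8 CPM (79.5 to 86.2) in NCD and 106 CPM (104 to 108) in HFD, for a log2 ratio of 0.36 (0.29 to 0.42). The neighbours F7 and F10 thus had the same direction and different sizes of ratio.

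The inhibitors and the fibrinolytic member lay between. Antithrombin (Serpinc1) stood at 1738 CPM (1723 to 1753) in NCD and 1433 CPM (1424 to 1442) in HFD, for a log2 ratio of -0.28 (-0.29 to -0.26). Protein C (Proc) stood at 360 CPM (354 to 367) and 299 CPM (295 to 303), for a log2 ratio of -0.27 (-0.30 to -0.24). Plasminogen (Plg) stood at 1310 CPM (1297 to 1323) and 1038 CPM (1031 to 1046), for a log2 ratio of -0.34 (-0.35 to -0.32). Without subtraction of spots off tissue, antithrombin, protein C and plasminogen were therefore lower by similar ratios, of -0.34 to -0.27 on the log2 scale.

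Of the 10 members, 9 had a log2 ratio of HFD to NCD below 0, where 29% of the 10665 genes with at least 200 UMIs did. The median log2 ratio was -0.27 over the members and 0.23 over all these genes. Past a fold of 1.5, 1 member was lower (Fgb), against 4.56% of genes, and 0 of 10 were higher, against 23.9% of genes. These are descriptions of 2 sections. When the spots off tissue were subtracted per spot, only 32.8% of the NCD UMIs were left, against 92.2% of the HFD UMIs. Of the 10 members, 6 then had a ratio above 0. The median log2 ratio over 10430 genes was then 0.28, and the share of all genes above 0 was not computed. Fgb kept its direction but not its place past 1.5-fold, at -0.30, the sum of the chains was at -0.14, and Fga, F2 and Plg stayed below 0. Fgg turned to 0.05, Serpinc1 to 0.12, Proc to 0.17, F7 to 0.62 and F10 to 1.00, and F9 went to 1.47. The order of Fgb below Fga below Fgg was the same in both readings.

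Depth also differed between the sections. In spots of 1000 to 5000 UMIs the fibrinogen sum was 6530 CPM in NCD and 5315 in HFD, and in spots of at least 20000 UMIs it was 6636 and 5149. The log2 ratio of the sum ran from -0.41 to -0.30 over 4 depth classes. Fgb was at -0.32 in spots of 1000 to 5000 UMIs, where Fga was at -0.36, and at -0.65 in spots of at least 20000, where Fga was at -0.25. F9 was above 0 in all 4 classes, from 0.31 to 0.41, and F7 was the only member whose sign changed, at 0.11 in the shallowest of them. Mitochondrial transcripts took 8.51% of UMIs in NCD and 5.64% in HFD, and the hemoglobin transcripts of red blood cells were the more abundant in NCD, with Hbb-bs at 3104 CPM there and 607 in HFD. Their part in these ratios was not tested.

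The makeup of fibrinogen RNA differed between the sections over all spots, and the gap depended on depth. Of all fibrinogen UMIs in NCD, Fgb held 45.7% (45.5 to 45.9), Fgg 27.5% (27.3 to 27.7) and Fga 26.8% (26.6 to 27.0). In HFD, Fgb held 37.4% (37.3 to 37.6), Fgg 33.1% (32.9 to 33.2) and Fga 29.5% (29.3 to 29.6). These shares need no library total. In spots of 1000 to 5000 UMIs, however, Fgb held 47.3% (46.6 to 48.0) in NCD and 46.6% (44.4 to 48.8) in HFD, and these intervals overlap. The HFD value there comes from 121 spots with 2061 fibrinogen UMIs. In spots of 5000 to 10000 UMIs the shares were 47.0% and 40.4%, and in spots of at least 20000 they were 44.6% and 36.5%. The Fgb share was lower in deeper spots of both sections, and the part of depth in the gap was not tested. Over the lobule the shares moved little, since Fgb held 47.1% of fibrinogen UMIs in pericentral and 44.7% in periportal spots of NCD, and 38.1% and 36.8% in HFD. Off tissue the Fgb share was 47.4% (46.9 to 47.8) on the NCD slide and 40.3% (39.2 to 41.4) on the HFD slide, so the slides differed in the same direction there.

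**Figure D2:**
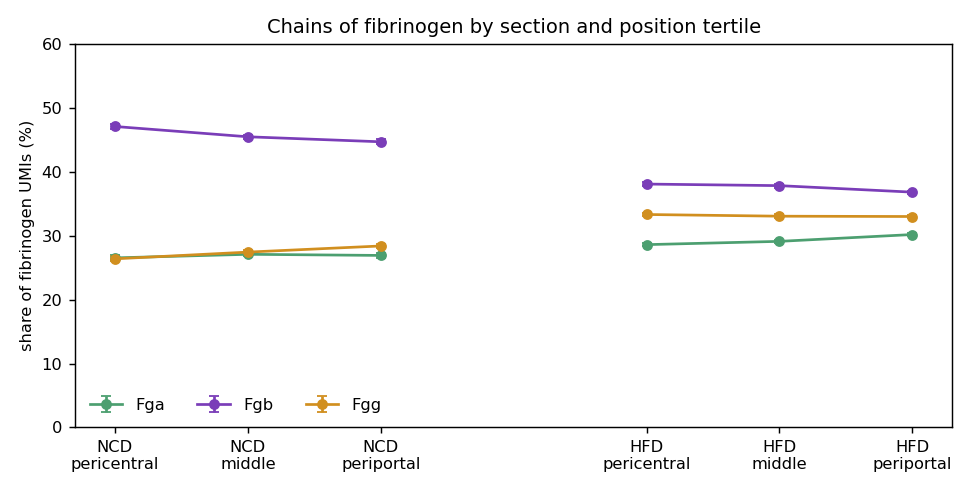
Share of all fibrinogen UMIs, in percent, held by Fga (green), Fgb (purple) and Fgg (amber) in the pericentral, middle and periportal spots of each section, with exact 95% Clopper-Pearson bars that are mostly smaller than the points. Fgb lies between 44.7% and 47.1% in NCD and between 36.8% and 38.1% in HFD, while Fgg lies above Fga in all tertiles of HFD.

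Position in the lobule was read from genes that are no members. Blood enters the lobule at the portal vein and leaves at the central vein, and hepatocytes divide their tasks along that path. Each spot was ranked within its own section by the share of 10 periportal genes among the UMIs of these and 10 pericentral genes, and the 2710 ranked spots of NCD and 3585 of HFD were cut into pericentral, middle and periportal tertiles. On genes the ranking did not use, the median log2 ratio of periportal to pericentral spots was 0.74 in NCD and 0.75 in HFD over 5 further periportal genes such as Ass1. Over 5 further pericentral genes with at least 200 UMIs it was -1.89 in NCD and -1.25 in HFD, so the contrast of these 5 was narrower in HFD. The pericentral genes of the ranking itself went the other way, with medians of -2.49 in NCD and -2.74 in HFD over 9 with at least 200 UMIs. Median UMIs per spot in the pericentral, middle and periportal tertiles were 6896, 9381 and 6041 in NCD and 17460, 14488 and 24333 in HFD. Hemoglobin was highest in the middle tertile of NCD, at 7849 CPM, and lowest in the periportal tertile of HFD, at 846 CPM.

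All 3 fibrinogen chains were higher in periportal than in pericentral spots of both sections. The sum in NCD went from 5862 CPM (5811 to 5913) in pericentral spots through 6733 (6686 to 6781) to 7005 (6948 to 7062) in periportal spots, for a log2 ratio of 0.26 (0.24 to 0.27). In HFD it went from 4241 CPM (4214 to 4268) through 4881 (4851 to 4912) to 5779 (5752 to 5807), for a log2 ratio of 0.45 (0.44 to 0.46). The gradient was therefore wider in HFD, by 0.19 (0.17 to 0.21) on the log2 scale. The step from the pericentral to the middle tertile was 0.20 on the log2 scale in both sections, and the step from the middle to the periportal tertile was 0.057 in NCD and 0.24 in HFD.

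Each chain had its own profile. Fga stood at 1555, 1824 and 1885 CPM in the pericentral, middle and periportal tertiles of NCD and at 1213, 1421 and 1744 CPM in HFD, with log2 ratios of 0.28 (0.24 to 0.31) and 0.52 (0.50 to 0.55). The Fga gradient in HFD was the steepest of any member in either section. Fgb stood at 2760, 3062 and 3131 CPM in NCD and at 1615, 1847 and 2128 CPM in HFD, with log2 ratios of 0.18 (0.16 to 0.21) and 0.40 (0.38 to 0.42). Fgg stood at 1547, 1847 and 1989 CPM in NCD and at 1413, 1613 and 1907 CPM in HFD, with log2 ratios of 0.36 (0.33 to 0.40) and 0.43 (0.41 to 0.45). Over 10 bins of position, Fga and Fgg of HFD came close to the NCD level at the most periportal end, Fga with 1872 against 1906 CPM and Fgg with 1996 against 2006 CPM. At the most pericentral end the same genes were apart, Fga with 1115 against 1516 CPM and Fgg with 1271 against 1504 CPM. Fgb did not close the gap, with 2235 CPM in HFD and 3152 CPM in NCD in the most periportal bin.

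**Figure D3:**
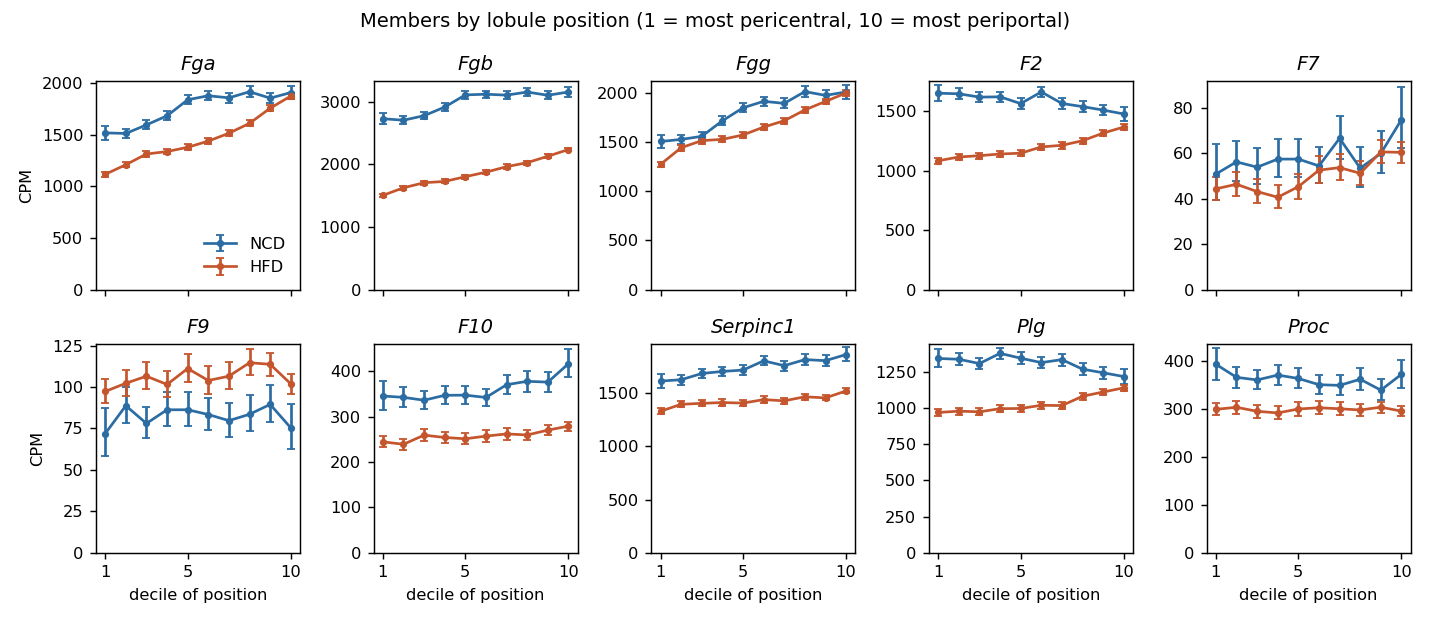
CPM of each member over 10 equal bins of lobule position (1, most pericentral, to 10, most periportal) in the NCD section (blue) and the HFD section (orange), with exact 95% Poisson bars and a y axis from 0 for each gene. The fibrinogen chains climb toward the periportal end in both sections, and Proc is flat in HFD. F2 and Plg are lower at the periportal than at the pericentral end of NCD and higher there in HFD.

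Prothrombin and plasminogen ran in opposite directions in the sections. F2 stood at 1627, 1609 and 1516 CPM from pericentral to periportal spots of NCD, for a log2 ratio of -0.10 (-0.14 to -0.07), and at 1109, 1174 and 1309 CPM in HFD, for a log2 ratio of 0.24 (0.22 to 0.26). Plg stood at 1325, 1342 and 1255 CPM in NCD, for a log2 ratio of -0.08 (-0.12 to -0.04), and at 976, 1005 and 1106 CPM in HFD, for a log2 ratio of 0.18 (0.16 to 0.20). Both NCD slopes were shallow, and both turned to just above 0 with a total that omits mitochondrial genes and the 20 of highest abundance, at 0.01 for F2 and 0.03 for Plg. In HFD, F2 was at least 0.23 and Plg at least 0.18 under every alternative tried.

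Antithrombin and F10 were slightly higher in periportal spots of both sections and differed little between them. Serpinc1 stood at 1652, 1751 and 1816 CPM in NCD, for a log2 ratio of 0.14 (0.10 to 0.17), and at 1375, 1427 and 1479 CPM in HFD, for a log2 ratio of 0.11 (0.08 to 0.13). F10 stood at 341, 350 and 384 CPM in NCD, for a log2 ratio of 0.17 (0.10 to 0.24), and at 250, 255 and 270 CPM in HFD, for a log2 ratio of 0.11 (0.06 to 0.16). The section difference was -0.03 (-0.07 to 0.01) for Serpinc1 and -0.06 (-0.15 to 0.03) for F10, and both intervals include 0. F7 stood at 53.9, 58.6 and 61.4 CPM in NCD, for a log2 ratio of 0.19 (0.00 to 0.37), and at 44.7, 47.6 and 57.7 CPM in HFD, for a log2 ratio of 0.37 (0.25 to 0.48). F9 and Proc had no gradient that these counts could show in NCD. F9 had a log2 ratio of 0.02 (-0.13 to 0.18) there and 0.12 (0.04 to 0.20) in HFD. Proc had -0.05 (-0.12 to 0.02) in NCD and 0.00 (-0.05 to 0.05) in HFD, where its tertiles stood at 299, 300 and 299 CPM.

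**Figure D4:**
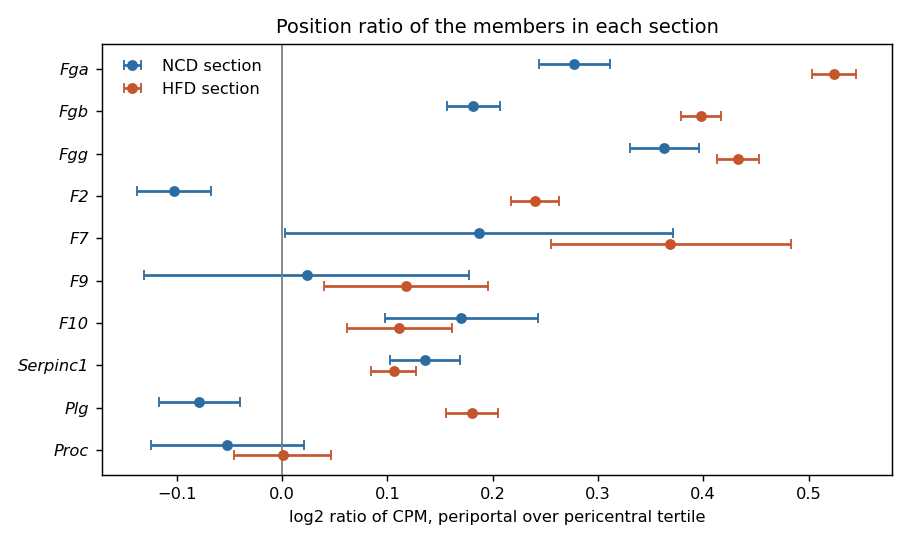
Log2 ratio of CPM in the periportal over the pericentral tertile for each member in the NCD section (blue) and the HFD section (orange), with exact conditional 95% intervals and a line at 0. F2 and Plg lie left of 0 in NCD and right of it in HFD, and Fga in HFD lies farthest right at 0.52.

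Above 0 lay 7 of the 10 members in NCD, where 28% of the 5380 genes with at least 200 UMIs in these spots did, and 10 of 10 in HFD, where 32.8% of 9322 genes did. The median log2 ratio of the members was 0.15 in NCD and 0.21 in HFD, and that of all these genes was -0.13 and -0.09. A list of 12 abundant plasma proteins of hepatocytes, such as Alb, was close to the members. Its median was 0.18 in NCD, with 8 of 12 above 0, and 0.23 in HFD, with 10 of 12 above 0. Past 1.5-fold, 0 members were higher in periportal spots of NCD, against 2.19% of genes, and 0 were lower, against 6.39%. In HFD, 0 members were higher, against 3% of genes, and 0 were lower, against 4.09%. The count for HFD includes Proc, whose interval spans 0. All 3 chains had ratios of HFD to NCD below 0 within every tertile. The sum was at -0.47 in pericentral, -0.46 in middle and -0.28 in periportal spots, and Fgb was at -0.77, -0.73 and -0.56. F10 and Serpinc1 kept nearly the same ratio in each tertile, from -0.51 to -0.45 and from -0.30 to -0.27. F9 was above 0 in every tertile, from 0.30 to 0.42.

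Spots were also ranked by the share of UMIs from 16 acute phase genes, among them Hp, Hpx, Saa1 and Orm1, none of them a member. In NCD the fibrinogen sum stood at 6082 CPM in the low and 6973 CPM in the high tertile, for a log2 ratio of 0.20 (0.18 to 0.21). In HFD it stood at 4243 and 5784 CPM, for a log2 ratio of 0.45 (0.44 to 0.46). In HFD all 10 members were above 0, against 35.5% of 9242 genes, and in NCD 7 of 10 were, against 33.9% of 5469 genes. Past 1.5-fold, 0 members were higher in either section, against 2.71% and 1.94% of genes. The 12 plasma proteins of hepatocytes, which are not in the acute phase list, rose about as much. Their median was 0.17 in NCD and 0.21 in HFD, where that of the members was 0.16 and 0.18. In HFD 10 of these 12 were above 0 and 2 below, from -0.32 for Rbp4 to 0.58 for Alb. Position moved with this ranking, since 70.5% of the high spots of HFD and 59.6% of those of NCD were periportal. Within position tertiles the sum kept smaller ratios, of 0.19, 0.16 and 0.19 in pericentral, middle and periportal spots of HFD and of 0.10, 0.10 and 0.028 in NCD. The members above 0 in HFD were then 7, 6 and 7 of 10. The share of all genes above 0 within a position tertile was not computed, so these counts have no background. F2, F7, F10, Serpinc1, Plg and Proc each had a value below 0 in at least 1 tertile, the lowest of these at -0.053 for F10. Within a position, F9 had ratios from -0.12 to 0.05 in HFD, and each of these intervals includes 0.

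Between the sections most of the 16 acute phase genes and fibrinogen parted. The list had a median log2 ratio of HFD to NCD of 1.12, with 11 of 16 genes higher past 1.5-fold, against 23.9% of all genes, and 0 lower. Lcn2, an iron-siderophore binding protein, stood at 7.65 CPM in NCD and 169 in HFD, for a log2 ratio of 4.46. Haptoglobin (Hp) stood at 1954 and 5130 CPM, and serum amyloid Saa1 at 107 and 529 CPM, although Saa1 and Saa2 are near-identical and may share reads. Of the 16 genes, 14 were above 0 and 2 below, Itih3 at -0.15 and Apcs at -0.03. Orm1 at 0.11 and Fgl1 at 0.17 were above 0 but under the median of all genes. All 3 fibrinogen chains were below 0 in the same libraries, although Fgg turned to 0.05 when spots off tissue were subtracted. A list of 10 regulators of hepatocyte genes had a median log2 ratio of 0.39, against 0.23 for all genes. Past 1.5-fold, 3 of the 10 were higher, against 23.9% of all genes, and 1 was lower, against 4.56%. The receptor Il6ra stood at 11.7 CPM in NCD and 20.3 in HFD, Stat3 at 37.0 and 53.8, Cebpb at 188 and 354 and the feedback inhibitor Socs3 at 2.41 and 6.41. Hnf4a stood at 153 and 187 CPM. Onecut1 and Foxa2 had ratios below 0, of -1.72 and -0.20. The list of 12 abundant plasma proteins of hepatocytes had a median log2 ratio of 0.14, with Alb at 0.05, Trf at 0.79 and Apoh at -0.63.

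**Figure D5:**
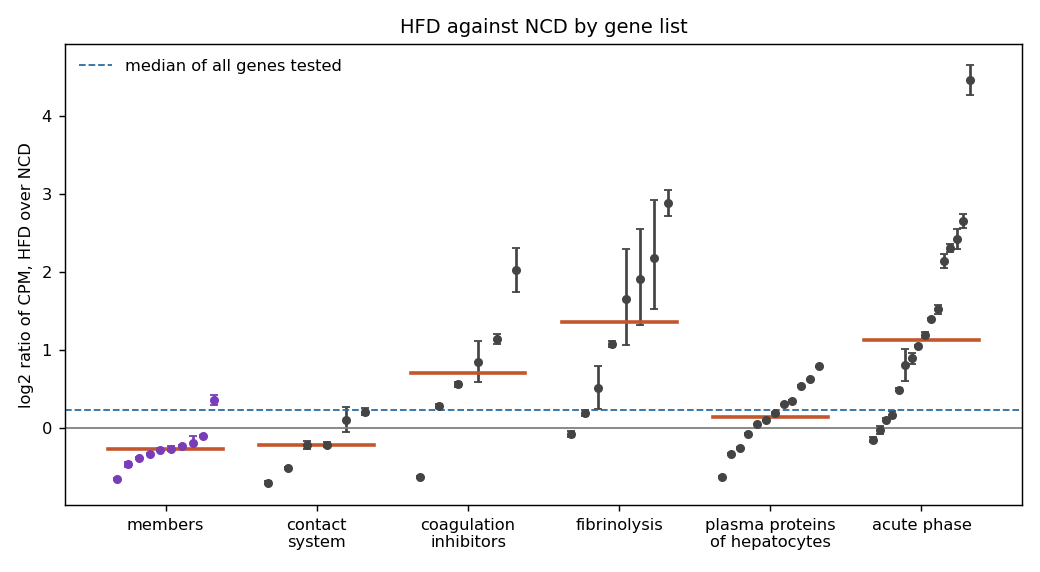
Log2 ratio of CPM in the HFD over the NCD section for single genes of 6 lists, with exact conditional 95% intervals, the median of each list as an orange line and the median of all 10665 genes as a dashed line at 0.23. Without subtraction of spots off tissue, the members (purple) and the contact system lie mostly below 0, and 11 of the 16 acute phase genes lie above 1.5-fold, up to Lcn2 at 4.46.

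The rest of the coagulation system was described over 37 other genes, of which 31 had at least 200 UMIs. Their median log2 ratio of HFD to NCD was 0.21, against 0.23 for all genes, with 10 of 31 higher past 1.5-fold, against 23.9% of all genes, and 3 of 31 lower, against 4.56%. The contact system, which starts clotting on charged surfaces, had a median of -0.22 over 6 genes. The 2 lowest of these 6 were the plasma protein Hrg, at 891 CPM in NCD and 547 in HFD, and kininogen Kng1, at 1795 and 1253. F12 and Klkb1 each had a log2 ratio of -0.22. The other kininogen, Kng2, went the other way at 202 and 233 CPM, and F11 was at 0.10 (-0.06 to 0.27). Cofactor genes were near level or sparse, with factor V (F5) at 185 and 205 CPM and F8, which is made by endothelial cells, at 8.06 and 13.1. Of the vitamin K genes that equip F2, F7, F9, F10 and Proc, the reductase Vkorc1 stood at 330 and 289 CPM, for a log2 ratio of -0.19, and the carboxylase Ggcx at 15.6 and 21.4, for a log2 ratio of 0.46 (0.31 to 0.62). Tissue factor (F3) was sparse, at 1.83 CPM in NCD and 2.01 in HFD.

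Of 6 coagulation inhibitors outside the members, 3 were higher past 1.5-fold in HFD (Serpina10, Tfpi and Thbd), against 23.9% of all genes, and 1 was lower (Apoh). Serpina10, the protein Z dependent inhibitor, stood at 87.3 CPM in NCD and 193 in HFD, for a log2 ratio of 1.14 (1.08 to 1.20). Heparin cofactor II (Serpind1) stood at 279 and 411 CPM and thrombomodulin (Thbd) at 4.10 and 16.6. Apoh went the other way, at 2901 and 1872 CPM. Of 8 fibrinolysis genes with enough UMIs, 5 were higher past 1.5-fold, against 23.9% of all genes, and 0 lower. Annexin A2 (Anxa2), a cell surface docking protein for plasminogen, stood at 10.6 CPM in NCD and 78.7 in HFD, and its partner S100a10 at 249 and 523. The plasminogen activator Plat rested on 26 UMIs in NCD and 203 in HFD. Hepatic inhibitors of fibrinolysis were nearly level, with α2-antiplasmin (Serpinf2) at 333 and 379 CPM and Cpb2 at 252 and 239. In their position within the lobule these 37 genes also varied. Serpind1 was higher in periportal spots of both sections, with log2 ratios of 0.35 and 0.44, and protein S (Pros1) was lower there, with -0.87 in NCD and -0.48 in HFD.

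Spots of the HFD section were ranked once more by the share of UMIs from 8 lipid droplet genes, such as Plin2 and Cidec. The fibrinogen sum stood at 5706 CPM in the low and 4412 CPM in the high tertile, for a log2 ratio of -0.37 (-0.38 to -0.36). All 10 members were below 0, against 30.4% of 9154 genes, from -0.40 for Fga to -0.03 for F9, and past 1.5-fold 0 were lower, against 2.67% of genes. The 12 plasma proteins of hepatocytes had a median of -0.20 in this ranking, with 10 of 12 below 0, and the members had a median of -0.18. Of the spots rich in lipid droplet transcripts, 63.9% were pericentral. Within position tertiles the sum was at -0.059 in pericentral, -0.070 in middle and -0.13 in periportal spots, so the ratio was much smaller at matched position. Members below 0 were then 8, 10 and 8 of 10, and the share of all genes below 0 at matched position was not computed. Fga was at 0.0065 in pericentral spots, F9 was above 0 in pericentral and in periportal spots, up to 0.25, and Proc was at 0.0011 in periportal spots.

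The genes most like fibrinogen in pattern were found by correlating log2(CPM + 1) over 20 bins, the 10 position bins of each section, with the summed chains. They were Serpina1a (r = 0.981), whose reads may be shared with its close copies, the complement factor H related gene Cfhr2 (0.981), vitronectin (Vtn, 0.981), argininosuccinate synthase (Ass1, 0.975) and the retinol dehydrogenase Rdh16f2 (0.974). The bins of a section share 1 library, and the step between the sections enters r. Within the 10 bins of each section alone, r was 0.858 and 0.991 for Serpina1a in NCD and HFD, 0.970 and 0.977 for Cfhr2, and 0.832 and 0.991 for Vtn. Among the members outside fibrinogen, Serpinc1 was the closest over all bins, with r = 0.933, and F9 was the only one below 0, with r = -0.62. F2 had r = -0.71 in NCD and 0.98 in HFD.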

How the data were processed

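The deposited tables hold UMI counts of every gene in every spot, which the authors made with Space Ranger and did not normalize, once for the whole capture area and once for the spots called over tissue. The submitters' processing notes name the build mm10. Filtered and full tables differed in 0 UMIs over shared spots. The spatial coordinates, images and single-cell data were not used here.

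UMIs were summed over spots, divided by all UMIs of these spots and given as CPM. Sums have exact Poisson intervals, shares Clopper-Pearson intervals and ratios exact conditional binomial intervals, with a level of 95%. No p-values were computed, and a gene was called past 1.5-fold (0.585 on the log2 scale) among genes with at least 200 UMIs. Position ranks used spots with at least 1000 UMIs and 10 UMIs of the index genes. The genes named are the 10 members, genes of the fixed lists and the 5 genes most like the fibrinogen sum among those with at least 1000 UMIs. Members and lists were chosen with earlier results of these data known. Gene positions are from GENCODE M21 on GRCm38. Work was done in Python 3.11.15 with scipy 1.17.1 and numpy 2.4.6. Some items are not reported here. The method was tested on simulated data. Alternatives changed the spots, weights, totals, depth and index, and spots off tissue were subtracted only for HFD against NCD. The values within position tertiles and depth classes were chosen after seeing the data.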

Additional observations from a re-analysis of the deposited data

Results flagged for a closer look

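Member transcripts were found in spots off tissue, which the main comparisons did not use. On the NCD slide the 10 members stood at 12883 CPM off tissue (12799 to 12969) and 12044 CPM over tissue. On the HFD slide they stood at 6692 CPM off tissue (6584 to 6802) and 9457 CPM over tissue. On the NCD slide F10 was at 470 CPM off tissue and 359 over tissue, and F9 at 104 and 82.8, whereas Plg was level at 1318 and 1310. On the HFD slide all 10 members were lower off tissue than over tissue, with Fga at 921 against 1492 CPM.

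F2 and Plg had slopes of opposite sign in the sections. The log2 ratio of periportal to pericentral spots was greater in HFD than in NCD by 0.34 (0.30 to 0.38) for F2 and by 0.26 (0.21 to 0.30) for Plg. With 1 section per diet, the difference was not tested, and the intervals cover counting error only.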

How the results depend on the processing

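No paired analysis was possible because each diet has 1 section and no test was made. Subtraction of spots off tissue was tried only for HFD against NCD, and not for the rankings of spots by position or index. Under the alternatives tried for each comparison, the fibrinogen sum kept its direction. Its log2 ratio of HFD to NCD was -0.38 as a mean of CPM per spot, -0.36 without mitochondrial and the 20 most abundant genes in the total, -0.58 against plasma protein UMIs, -0.39 after drawing spots down to 1000 UMIs, which left out 840 spots of NCD and 4 of HFD, and -0.14 after subtracting spots off tissue. Within pericentral, middle and periportal tertiles it was -0.47, -0.46 and -0.28. Against plasma protein UMIs, 3 members were lower past 1.5-fold and the median of all genes moved from 0.23 to 0.03. After subtraction, 3 members were higher (F7, F9 and F10) and 0 lower, while the median of all genes was 0.28 and their share past 1.5-fold was not computed. Within the periportal tertile 0 members were lower. The cause was not tested. The periportal ratio of the sum in NCD was 0.28 without Cyp2e1 and Cyp2f2 in the index, 0.28 for quintiles, 0.37 without the most abundant genes and 0.21 after drawing down with at least 1 index UMI, where 1 member (F7) was higher past 1.5-fold. In HFD it was 0.55 for quintiles, where 1 member (Fga) was higher past 1.5-fold, 0.50 without the most abundant genes and 0.34 after drawing down. Without the most abundant genes, the acute phase ratio of the sum was 0.26 in NCD and 0.49 in HFD, and the lipid droplet ratio was -0.43. At matched position, from pericentral to periportal, these were 0.10, 0.10 and 0.028, then 0.19, 0.16 and 0.19, and -0.059, -0.070 and -0.13. Of single members, Proc changed sign under 3 of 7 position alternatives in HFD, F9 under 2 in NCD, F10 under 1 in HFD, and F2, Plg and Proc under 1 in NCD. Depth limits F7 and F9, which had 1691 and 2405 UMIs in NCD.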
